A study of Saccharomyces cerevisiae Sigma1278b with 62 samples.

Results

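The genes described here are 7 regulators of ribosomal protein (RP) gene transcription in budding yeast, RAP1 (YNL216W), HMO1 (YDR174W), FHL1 (YPR104C), IFH1 (YLR223C), CRF1 (YDR223W), SFP1 (YLR403W) and SCH9 (YHR205W). They are 7 of the 5563 nuclear open reading frames (ORFs) in the count tables and were chosen by their known role, with their changes between each mutant and its wild type (WT) already known. Those changes are therefore given as a description, with whether the fit called them but without p-values, and support nothing. The same holds for contrasts built from those changes, which are mutant against mutant and the effect of a mutant in one medium against the other. Comparisons between media within a strain and between RNA preparations of WT were not used in the choice and are given with adjusted p-values.

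All strains were Saccharomyces cerevisiae of the Sigma1278b background, and each strain and medium gave 2 ribosome footprint (FP) and 2 total RNA libraries, 56 libraries in all. Cultures were kept at 30°C, either in YPAD with 2% glucose, harvested in mid log phase, or in YPAG with 3% glycerol. By the study's account the glycerol cultures were harvested some hours after a shift out of glucose, before fast growth had resumed, although the labels give mid log phase for both media. All cultures were treated with cycloheximide (0.1 mg/ml) before harvest. Asc1, the yeast homologue of RACK1, is a protein of the small ribosomal subunit. The main glucose experiment held WT, asc1-M1X, asc1∆, asc1-D109Y, rpl23b∆ and rpp1a∆. In asc1-M1X the start codon of ASC1 is replaced by a stop codon, so that no protein is made while the intronic snoRNA snR24 is kept, asc1∆ is the deletion, and asc1-D109Y and asc1-DE carry substitutions that weaken the binding of Asc1 to the ribosome. The other mutants lack 1 of the 2 gene copies for a protein of the large (rpl23b∆, rpp1a∆) or the small subunit (rps0b∆, rps16b∆). The asc1-DE strain and its WT were profiled by poly(A) tailing with cells lysed at once. The rps0b∆ and rps16b∆ strains and their WT came from a deletion collection, each a single clone, and were reverse transcribed with another enzyme. In each of the main mutants the 2 replicates were different isolates, whereas the WT replicates were the same strain. WT and asc1-M1X were also grown in glycerol, in a separate experiment, and had further glucose total RNA libraries made by rRNA removal (Ribo-Zero) in place of poly(A) selection.

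RP genes make up a large part of the transcripts of a growing yeast cell, and their promoters are read by a small set of factors. Rap1 binds the promoter DNA, Hmo1 sits beside it on many of these promoters, and the forkhead protein Fhl1 serves as the platform for the coactivator Ifh1. When the growth-control complex TORC1 is inactive, Ifh1 leaves Fhl1 and the corepressor Crf1 can take its place. Sfp1 is a zinc-finger activator of RP and ribosome biogenesis genes that enters the nucleus when nutrients are plentiful, and Sch9 is the AGC kinase through which TORC1 signals to ribosome synthesis.

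The libraries held from 1713047 to 15322986 reads on nuclear ORFs, with a median of 7160678. The labels held in every strain checked. ASC1 footprints numbered 179 to 249 in asc1-M1X in glucose against 30475 to 33792 in WT, and each deleted RP gene copy had from 19 to 112 reads a library where its WT had from 4031 to 34047. Values below are RPM, the reads of a gene in every 1000000 reads of its library, and so shares from which the amount of RNA per cell cannot be told. RPM were scaled between libraries of one kind by the trimmed mean of M values (TMM). The WT levels per kilobase and the CRF1 read ratios were left without TMM scaling. Translational efficiency (TE) is FP over total RNA, ∆TE is its log2 change, and a gene is called at an adjusted p of 0.05 from edgeR's quasi-likelihood test. Where the libraries of a mutant and its reference are said not to overlap, the share of all genes without overlap is not given. With so few libraries a group, unchanged genes can also separate, so a lack of overlap is a description only.

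Among the WT levels in the main glucose experiment, divided by counted length so that genes can be compared, HMO1 stood highest and CRF1 lowest in both pools. In total RNA, HMO1 had 374 and 354 RPM per kilobase in the 2 replicates, SCH9 138 and 135, and IFH1 97.6 and 96.3. SFP1 had 94.6 and 89.7, RAP1 79.3 and 78.6, FHL1 50.3 and 48.0, and CRF1 12.7 and 10.7, so that no neighbours in this order overlapped. In FP the order differed: after HMO1 (216 and 200.4) and SCH9 (111 and 113) came RAP1 (98.8 and 102), SFP1 (67.4 and 67.8), IFH1 (19.7 and 22.6), FHL1 (17.6 and 19.8) and CRF1 (0.208 and 1.06). IFH1 and FHL1 overlapped there. In this experiment IFH1 thus lay above SFP1 and RAP1 in total RNA and below both in FP. Its place above RAP1 in total RNA was kept with poly(A) tailing (101.6 and 99.5 against 52.3 and 53.1). It was reversed in the collection (31.3 and 27.3 against 40.0 and 41.1). With Ribo-Zero RNA, IFH1 also had a lower RPM than RAP1, although its coding sequence is longer. The TE of IFH1 in the main experiment was 0.335 of that of the median gene, and only 4.31% of 4616 genes lay lower. RAP1 was at the other end with 1.95 times the median gene (86.4% of genes lower), followed by SCH9 (1.25), SFP1 (1.13), HMO1 (0.877) and FHL1 (0.583).

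**Figure D1:**
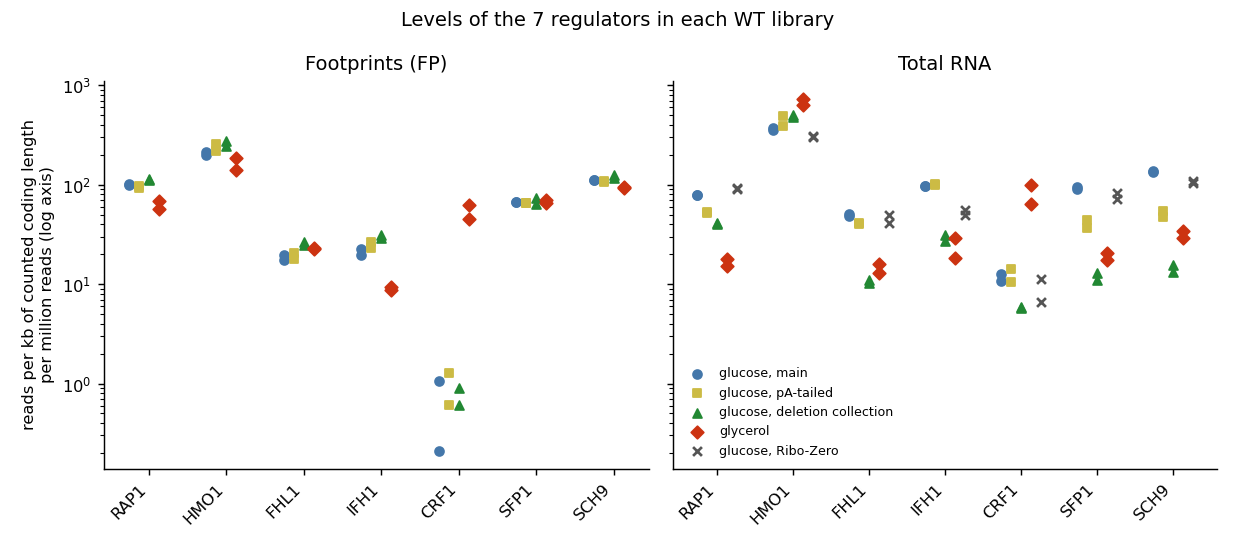
Levels of the 7 regulators in WT, in RPM per kilobase on a log axis, with 1 point per library and the FP and total RNA pools drawn separately for each experiment. The FP levels of SCH9, RAP1 and SFP1 in glucose lie close together across experiments, whereas their total RNA levels in the collection libraries lie below those of the main experiment.

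The WT total RNA levels of SCH9 differed more between the experiments than its FP levels did. In the 6 WT glucose FP libraries of the main, poly(A)-tailing and collection experiments, SCH9 lay between 106 and 124 RPM per kilobase and RAP1 between 91.9 and 115. SCH9 total RNA was 138 and 135 in the main experiment, 47.8 and 54.5 with poly(A) tailing, 15.7 and 13.2 in the collection and 104 and 108.9 with Ribo-Zero. The TE of SCH9 accordingly read 1.25, 3.47, 10.1 and 1.41 times that of the median gene in these 4 settings. IFH1 had 97.6 and 96.3 in the main experiment, 101.6 and 99.5 with poly(A) tailing, 31.3 and 27.3 in the collection and 55.8 and 49.2 with Ribo-Zero, so that unlike SCH9 it kept its main level in the poly(A)-tailing libraries. HMO1, with a coding sequence of 741 nucleotides the shortest of the 7, had 500.2 and 476 in the collection. Across all genes, Spearman's rho between TE and coding length was −0.54 in the main experiment, −0.61 with Ribo-Zero RNA, 0.03 with poly(A) tailing, 0.41 in the collection and 0.36 in glycerol. The coding sequences of IFH1 (3258 nucleotides), FHL1 (2811), RAP1 (2484), SCH9 (2475) and SFP1 (2052) are long and that of CRF1 (1404) intermediate, so total RNA and TE of these genes are compared only within an experiment. These experiments differed in library method, strain and enzyme, which cannot be told apart here.

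Poly(A)-selected and Ribo-Zero WT libraries from glucose could be tested against each other. The Ribo-Zero libraries were separate preparations with fewer reads, so RNA selection and preparation cannot be told apart. IFH1 was higher after poly(A) selection by 0.65 on the log2 scale (SE 0.08, adjusted p = 8.89e-08, edgeR), with 292 and 289 against 194 and 172 RPM. RAP1 was lower by 0.45 on the same scale (a log2 change of −0.45, SE 0.08, adjusted p = 2.12e-05), with 179 and 178 against 245 and 240.4. The remaining 5 regulators changed by −0.11 to 0.14 and were not called. Calls covered 2 of the 7 regulators and 29.8% of all 5084 genes tested.

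In asc1-M1X in glucose, RAP1 and SCH9 were the regulators with the largest decreases. RAP1 FP fell from 255 and 259.9 in WT to 180.0 and 185 in asc1-M1X, and its total RNA from 179 and 178 to 119 and 108.8. The groups did not overlap, and the log2 changes were −0.48 (SE 0.05) in FP and −0.60 (SE 0.07) in total RNA, with a ∆TE of 0.11 (SE 0.08) that was not called. SCH9 FP fell from 285 and 287 to 192 and 186, a log2 change of −0.59 (SE 0.05), and its total RNA from 310.3 and 305 to 264 and 238, a change of −0.24 (SE 0.06). For this kinase the footprints thus decreased further than the RNA, and SCH9 was the only regulator called in TE, with a ∆TE of −0.34 (SE 0.08). The SCH9 call in TE was lost without asc1-M1X replicate 1 (−0.29) or replicate 2 (−0.38), and that in total RNA without replicate 2 (−0.18).

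The DNA-binding partner HMO1 had 149 and 136 in WT and 117 and 124 in asc1-M1X in FP (log2 −0.22, SE 0.07), and 225 and 213 against 178 and 179.7 in total RNA (−0.24, SE 0.06). FHL1 FP was 51.7 and 57.5 in WT and 43.0 and 47.6 in asc1-M1X (−0.26, SE 0.09). FHL1 total RNA changed by −0.22 and was not called. The change was −0.35 without asc1-M1X replicate 1 and −0.26 without WT replicate 2. HMO1 in both pools and FHL1 in FP were lower in every asc1-M1X library than in either WT library. This separation was not set against that of all genes, and the calls of both genes were fragile. The HMO1 call in FP was lost without asc1-M1X replicate 1 (−0.19) or WT replicate 1 (−0.16), that in total RNA without asc1-M1X replicate 1 (−0.23) or replicate 2 (−0.25), and that of FHL1 in FP without asc1-M1X replicate 1 (−0.19), WT replicate 2 (−0.19) or under DESeq2 (−0.26). The coactivator IFH1 (FP −0.09, SE 0.08, and total RNA −0.17, SE 0.06) was not called. Nor was the activator SFP1 (FP −0.12, SE 0.06, and total RNA −0.05, SE 0.07). With the replicate number as a block, which pairs libraries of one number, IFH1 (−0.17) and FHL1 (−0.23) were called in total RNA. In the main fit 4 of the 6 regulators tested were called in FP, 3 in total RNA and 1 in TE, every one lower. Of 4947 genes, 52.3%, 36.1% and 20.2% were called in these pools. In total RNA 5 of the 6 had an unadjusted p under 0.05 by edgeR, beside 2337 of the 4947 genes. These contrasts were known when the genes were chosen, so nothing is read from the counts. Without TMM scaling (CPM) the median gene shifted by 0.14 in FP and 0.11 in total RNA, and HMO1 FP then changed by −0.08.

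**Figure D2:**
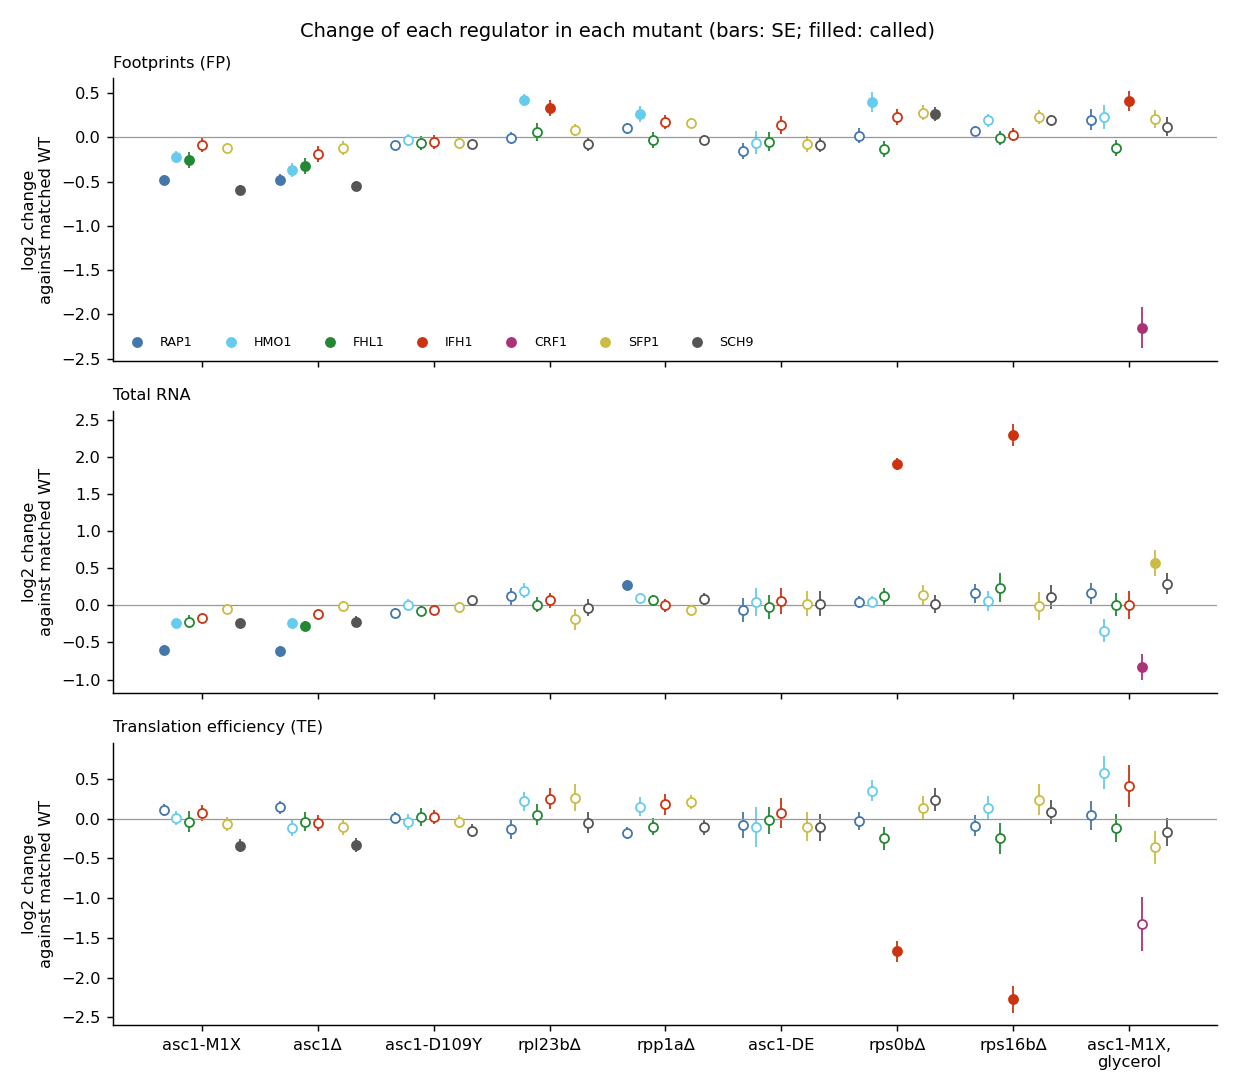
Log2 change of each regulator against its matched WT in FP, total RNA and TE for every mutant, with filled points for called changes and bars of 1 SE. RAP1 and SCH9 lie lowest among the glucose FP points of asc1-M1X (−0.48 and −0.59), and IFH1 stands apart in total RNA of rps0b∆ and rps16b∆ (1.91 and 2.30).

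The second strain without Asc1 protein gave similar levels. RAP1 FP was 183 and 183 in asc1∆ (log2 −0.48, SE 0.06) and its total RNA 113 and 112 (−0.62, SE 0.07). SCH9 FP was 201 and 187 (−0.55, SE 0.06), its total RNA 265 and 247 (−0.22, SE 0.07) and its ∆TE −0.33 (SE 0.09). HMO1 FP was 113 and 105 (−0.37, SE 0.08) and FHL1 FP 42.0 and 45.3 (−0.32, SE 0.09). HMO1 and FHL1 total RNA changed by −0.24 (SE 0.07) and −0.28 (SE 0.07). The 4 regulators RAP1, SCH9, HMO1 and FHL1 were called in FP and in total RNA and SCH9 alone in TE, against 48.8%, 31.3% and 12.0% of 4958 genes called. Leaving out single libraries removed some of these calls. The SCH9 call in TE was lost without any of the 4 cultures (−0.31 to −0.35) and under DESeq2. The FHL1 call in FP was lost without asc1∆ replicate 1 (−0.25), without WT replicate 2 (−0.24) and under DESeq2. Only 1 regulator, RAP1, was still called in total RNA without asc1∆ replicate 2 or without WT replicate 1. The same 2 WT cultures served as the reference for asc1-M1X and asc1∆.

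The direct comparison of the 2 null strains by edgeR called no regulator. The asc1-M1X minus asc1∆ differences were −0.05 to 0.14 in FP, −0.04 to 0.06 in total RNA and −0.03 to 0.13 in TE (log2), none had an unadjusted p under 0.05, and DESeq2 called none either. In each pool edgeR called 0.02% of 4997 genes. A p that misses the threshold does not show that the strains are alike.

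The Ribo-Zero total RNA libraries offered a measurement of the same strains without poly(A) selection. RAP1 had 245 and 240.4 in WT and 173 and 167 in asc1-M1X (log2 −0.51, SE 0.07). FHL1 had 146 and 123 against 101 and 103 (−0.41, SE 0.09), IFH1 194 and 172 against 138 and 153 (−0.33, SE 0.08), HMO1 211 and 218 against 174 and 176 (−0.29, SE 0.07) and SCH9 271 and 286 against 243 and 225 (−0.24, SE 0.07). These 5 regulators were called, and SFP1 was not (−0.00, SE 0.08). IFH1 was thus called in this RNA preparation, whereas its change of −0.17 in the poly(A)-selected libraries was not called in the main fit. The poly(A) change was called with at least 10 reads in every library (−0.17), without a filter (−0.19) and with the replicate-number block (−0.17). The 2 changes were not tested against each other, so no difference between preparations is drawn. Among the Ribo-Zero calls, those of IFH1 (−0.23) and FHL1 (−0.27) were lost without WT replicate 1. That of SCH9 was lost without asc1-M1X replicate 2 or under DESeq2 (−0.19 and −0.25). Set against the main FP libraries, only SCH9 was called in TE (−0.34, SE 0.09), a call lost without either asc1-M1X Ribo-Zero library, without WT replicate 1 or under DESeq2. The shares of all 4849 genes called were 37.4% in total RNA and 9.34% in TE.

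The ribosome-binding mutants left the regulators near their WT levels. In asc1-D109Y, RAP1 FP was 246 and 238 and SCH9 FP 269 and 268, within 0.09 of WT on the log2 scale. Over the 6 regulators the asc1-D109Y changes were −0.09 to −0.03 in FP, −0.10 to 0.07 in total RNA and −0.15 to 0.02 in TE. In asc1-DE they were −0.15 to 0.14, −0.06 to 0.06 and −0.11 to 0.07. No regulator was called in either mutant, none had an unadjusted p under 0.05 and DESeq2 called none. Few genes were called in all, with 0.985%, 0.37% and 0.0% of 4871 in asc1-D109Y and 0.0213%, 0.0% and 0.0% of 4698 in asc1-DE, in FP, total RNA and TE respectively.

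Set directly against asc1-D109Y, asc1-M1X was lower in the same 3 genes in both pools. SCH9 FP had a log2 change of −0.50 (SE 0.05), RAP1 FP of −0.40 (SE 0.05) and HMO1 FP of −0.19 (SE 0.06), while FHL1 (−0.20, SE 0.09) was not called. In total RNA the changes called were −0.50 (SE 0.07) for RAP1, −0.31 (SE 0.07) for SCH9 and −0.26 (SE 0.06) for HMO1. Every one of these genes was lower in both asc1-M1X libraries than in either asc1-D109Y library. No regulator was called in TE (1 with an unadjusted p under 0.05, none by DESeq2), where SCH9 had −0.19 (SE 0.09). With the culture as a block, which pairs the FP and RNA libraries made from one extract, the SCH9 ∆TE of −0.19 was called. The background was 51.7% in FP, 32.8% in total RNA and 16.8% in TE of 4941 genes. HMO1 was no longer called in FP without asc1-M1X replicate 1 (−0.16), without asc1-D109Y replicate 2 (−0.15) or under DESeq2, in total RNA without asc1-D109Y replicate 2 (−0.19), and in neither without TMM scaling (−0.07 and −0.13).

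CRF1 could not be compared in glucose under the filter of 128 reads per library type. Its 2 main WT FP libraries held 2 and 12 reads, those of asc1-M1X 16 and 14 and those of asc1∆ 17 and 14. Total RNA held more, with 207 reads in the 2 WT libraries together, 302 in asc1-M1X and 306 in asc1∆. Summed over replicates, the asc1-M1X to WT ratio of CRF1 reads per library total was 2.01 in FP (95% counting interval 1.03 to 4.11). In total RNA it was 1.52 (1.27 to 1.82). These ratios lack TMM scaling, without which the median gene lay higher by 0.14 in FP and 0.11 in total RNA (log2). The FP interval is therefore not read as excluding a ratio of 1. The intervals cover counting error only, and the FP ratio rests on WT libraries of 2 and 12 reads. In a fit without the filter, CRF1 FP was not called in asc1-M1X (log2 0.84, SE 0.56) or asc1∆ (0.79, SE 0.56), and CRF1 total RNA was called higher in asc1-M1X (log2 0.47, SE 0.16) and in asc1∆ (0.57, SE 0.15) but not with Ribo-Zero RNA (0.03).

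HMO1 and IFH1 footprints were higher after loss of the RPL23B gene copy. In rpl23b∆, HMO1 FP rose from 149 and 136 in WT to 194 and 192 (log2 0.42, SE 0.07), and IFH1 FP from 67.6 and 76.5 to 86.6 and 97.3 (0.33, SE 0.09). The groups did not overlap for either gene. Across all genes the FP change followed coding length (rho −0.23), with a median of 0.11 below 1000 nucleotides and −0.10 above 2000. Of the genes of the same class, 79.1% lay below HMO1 and 91.9% below IFH1. RAP1 (−0.01), SCH9 (−0.08), SFP1 (0.08) and FHL1 (0.06) stayed close to WT. The IFH1 call was lost without WT replicate 1 (0.25). No regulator was called in total RNA or TE, none had an unadjusted p under 0.05 there and DESeq2 called none. Without rpl23b∆ replicate 1, however, SFP1 (−0.44) and HMO1 (0.27) were called in total RNA and SFP1 (0.50) in TE. SFP1 total RNA was 173 in that library and 125 in the other. Of all 4891 genes, 49.4% were called in FP, 24.2% in total RNA and 2.62% in TE.

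In rpp1a∆, HMO1 FP was 184 and 159 (log2 0.26, SE 0.09) and RAP1 total RNA 219 and 214 (0.28, SE 0.06). Both were higher in every rpp1a∆ library than in either WT library, and these were the only regulators called. IFH1 FP changed by 0.17 and was not called. The FP change followed coding length across all genes here too (rho −0.30). Genes below 1000 nucleotides had a median of 0.13, and 63.5% of them lay below HMO1. The HMO1 call was lost without rpp1a∆ replicate 1 (0.14), without WT replicate 2 (0.18) or under DESeq2, and the RAP1 call without WT replicate 2 (0.27). No regulator was called in TE, although RAP1 (−0.18, SE 0.08) and SFP1 (0.21, SE 0.09) had unadjusted p-values under 0.05. DESeq2 called none. The background was 41.5%, 28.1% and 3.87% of 4890 genes. Tested against each other, rpp1a∆ and rpl23b∆ differed in no regulator in any pool by edgeR (none at an unadjusted p under 0.05, none by DESeq2), where 0.164%, 0.0614% and 0.0205% of 4885 genes were called. Of the 131 RP genes tested, which are the targets of these factors, 11 were called higher and 79 lower in FP in rpl23b∆, and 12 higher and 43 lower in rpp1a∆.

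IFH1 gave the largest change of the set in the small-subunit deletions, in total RNA but not in FP. Its total RNA was 129 and 116 RPM in the collection WT, 484 and 425 in rps0b∆ and 521 and 671 in rps16b∆. Every deletion library was above 3 times either WT library. The log2 changes were 1.91 (SE 0.08, 3.75-fold) in rps0b∆ and 2.30 (SE 0.15, 4.91-fold) in rps16b∆, the sixth and the fourth largest by size of 4832 genes. IFH1 FP was 100.2 and 95.2 in WT, 116 and 114 in rps0b∆ (0.23, SE 0.09) and 99.8 and 99.2 in rps16b∆ (0.03, SE 0.07), and was called in neither. The ∆TE was therefore −1.67 (SE 0.13) and −2.27 (SE 0.17), both called, and in rps16b∆ it was the lowest of 1174 genes with a coding sequence above 2000 nucleotides. The rps16b∆ call in TE was lost without WT replicate 1 (−2.31) or WT replicate 2 (−2.22), with the value little changed. Each collection strain was 1 clone, so clone and genotype cannot be told apart.

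**Figure D3:**
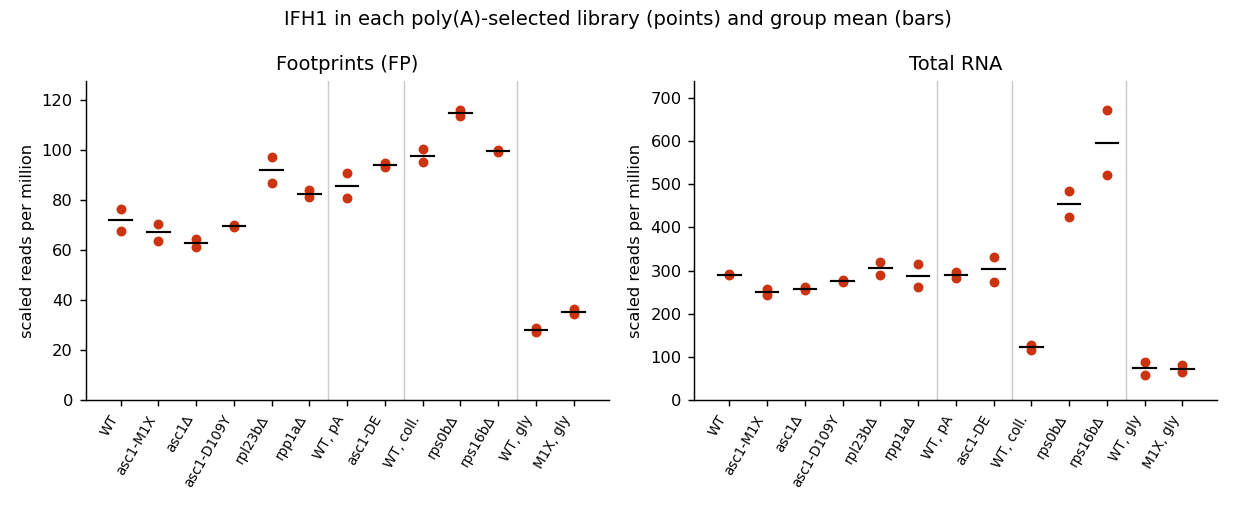
IFH1 in each FP and poly(A)-selected total RNA library, in scaled RPM, with 1 point per library, a bar at the group mean and lines between experiments. In the collection experiment total RNA was 116 to 129 in WT, 425 to 484 in rps0b∆ and 521 to 671 in rps16b∆, while FP stayed between 95.2 and 116.

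The other regulators moved less in these strains. In rps0b∆, HMO1 FP was 202 and 248 against 160.2 and 181 in WT (log2 0.40, SE 0.11) and SCH9 FP 346 and 359 against 286 and 302 (0.26, SE 0.08), both called and without overlap. The HMO1 call was lost without rps0b∆ replicate 2 (0.25) or WT replicate 1 (0.31), and the SCH9 call without any 1 of the 4 libraries (0.22 to 0.30) and under DESeq2. In total RNA the regulators other than IFH1 changed by 0.02 to 0.14 in rps0b∆. In rps16b∆ FP none was called, although SFP1 (0.23, SE 0.08), HMO1 (0.19, SE 0.07) and SCH9 (0.19, SE 0.06) had unadjusted p-values under 0.05. All 3 were called without WT replicate 2 (0.33, 0.28 and 0.22), and none by DESeq2. The background in FP, total RNA and TE was 19.7%, 24.4% and 1.43% of 4832 genes in rps0b∆ and 8.24%, 0.414% and 0.145% in rps16b∆.

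The RP targets stayed near their WT levels beside IFH1. Their median log2 change in total RNA was 0.08 in rps0b∆ (24 higher and 10 lower of 131) and −0.02 in rps16b∆ (0 higher and 2 lower). In FP the medians were −0.02 and 0.02. The direct comparison of the 2 deletions called no regulator, with IFH1 differences of −0.39 in total RNA (SE 0.14), 0.20 in FP (SE 0.07) and 0.59 in TE (SE 0.17). With edgeR at an unadjusted p under 0.05 there were 2 regulators in FP, 1 in total RNA and 1 in TE, and DESeq2 called none. The IFH1 total RNA difference was called without rps16b∆ replicate 1 (−0.55) and without rps16b∆ replicate 2 (−0.20). The background was 3.97%, 0.0835% and 0.0835% of 4788 genes.

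The glycerol cultures carried the largest changes of the set. CRF1, almost silent in glucose footprints, had 78.9 and 57.6 RPM in FP in WT in glycerol against 0.294 and 1.48 in glucose. The summed reads were 1139 against 14, a ratio of 77.1 after scaling to library size (95% counting interval 45.8 to 141.0). In total RNA it had 126 and 85.6 against 15.6 and 13.1, a ratio of 6.87 (5.93 to 7.99). The fitted log2 changes of this corepressor were 6.15 in FP (SE 0.40), 2.91 in total RNA (SE 0.21) and 3.24 in TE (SE 0.59). CRF1 passed the filter only through its glycerol libraries, which fixes the direction, so its values between media are a description and no p is given. Its glycerol TE was 0.942 of that of the median gene.

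The coactivator IFH1 went the other way. Its FP was 67.6 and 76.5 in glucose and 29.0 and 27.3 in glycerol (log2 −1.37, SE 0.11, adjusted p = 4.3e-05, edgeR), and its total RNA 292 and 289 against 89.7 and 58.7 (−1.95, SE 0.18, adjusted p = 7.38e-06). Its ∆TE of 0.57 (SE 0.24, adjusted p = 0.0539) did not pass, but with the culture as a block it was 0.61 (SE 0.15, adjusted p = 0.00106), and without glycerol WT replicate 1 it was 0.87 and passed. IFH1 was the only regulator apart from CRF1 whose FP level moved more than 1 log2 unit. Among genes above 2000 nucleotides 9.91% had a lower FP change than IFH1.

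**Figure D4:**
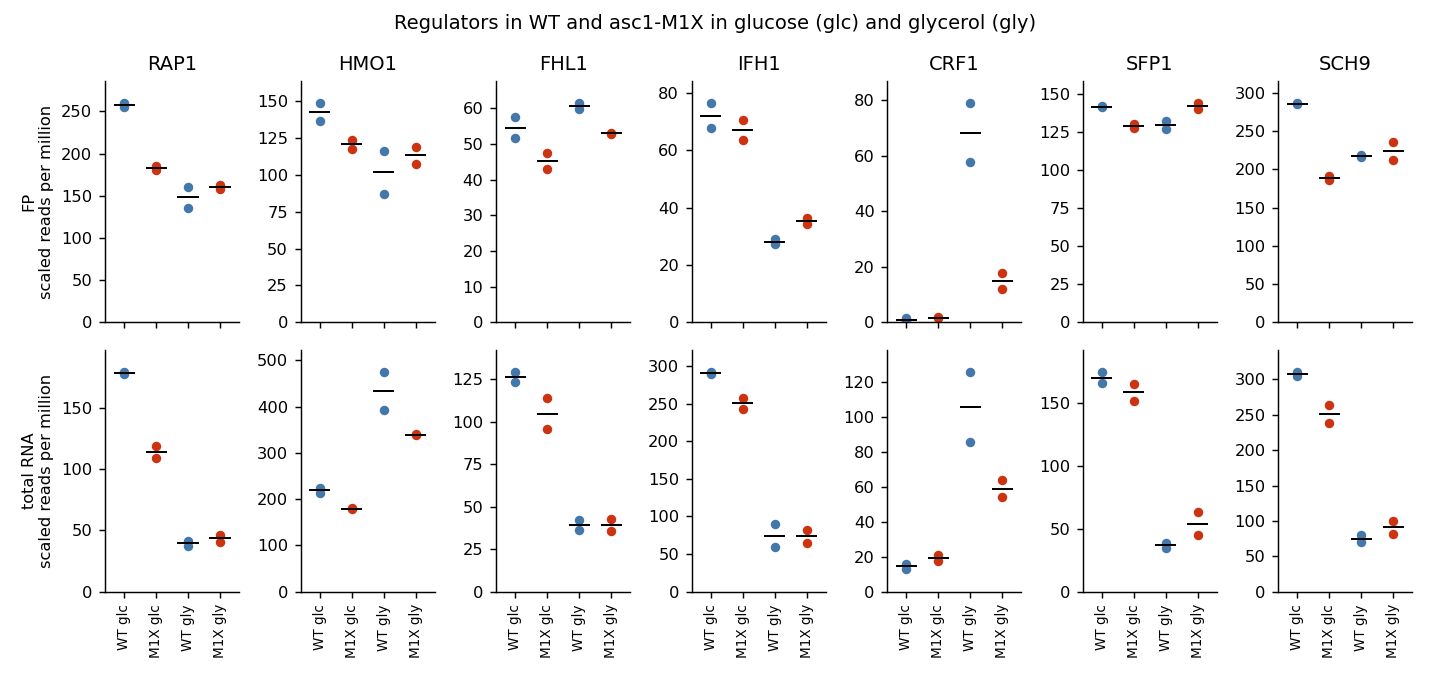
Scaled RPM (axes from 0) of each of the 7 regulators in WT and asc1-M1X in glucose and glycerol, FP in the upper and total RNA in the lower panels, with 1 point per library and a bar at the group mean. CRF1 FP rises from 0.294 and 1.48 in WT in glucose to 78.9 and 57.6 in glycerol and reaches 17.8 and 11.9 in asc1-M1X.

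The other 5 regulators separated in the 2 pools. RAP1 total RNA fell from 179 and 178 in glucose to 41.2 and 37.2 in glycerol (log2 −2.16, SE 0.11, adjusted p = 1.56e-07), while its FP went from 255 and 259.9 to 161 and 135 (−0.81, SE 0.11, adjusted p = 0.000682). SCH9 total RNA changed by −2.01 (SE 0.11, adjusted p = 3.24e-07) and its FP by −0.41 (SE 0.08, adjusted p = 0.0029). SFP1 total RNA, at 175 and 166 in glucose, was 38.8 and 34.9 in glycerol (−2.18, SE 0.11, adjusted p = 1.73e-07), with FP at 142 and 142 against 133 and 127 (−0.14, SE 0.08, adjusted p = 0.145). FHL1 had the same form, with total RNA at −1.66 (SE 0.11, adjusted p = 1.11e-06) and FP at 0.14 (SE 0.09, adjusted p = 0.218). For these 4 long genes TE rose by 1.35 to 2.04 on the log2 scale, where the median ∆TE of all genes above 2000 nucleotides was 0.91. HMO1, the short gene, was the exception: its total RNA rose from 225 and 213 to 394 and 475 (1.02, SE 0.13, adjusted p = 5.36e-05), its FP fell by 0.50 on the log2 scale (SE 0.13, adjusted p = 0.0127) and its ∆TE was −1.52 (SE 0.19, adjusted p = 6.64e-05). Without TMM scaling the HMO1 FP change was −0.35 and no longer passed. The shares of 5091 genes called were 76.6% in FP, 85.4% in total RNA and 73.9% in TE, against 5, 7 and 6 of the 7 regulators. CRF1 is counted in each pool, although the filter had fixed its direction.

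The change of total RNA between the media followed coding length across all genes. In WT its median was 1.26 (log2) over 1864 genes below 1000 nucleotides and −1.10 over 1211 genes above 2000 nucleotides, with a Spearman's rho of −0.61 over 5091 genes. In FP these medians were 0.23 and −0.19, with a rho of −0.15. Read against the median of their own length class, the total RNA changes were −1.08 for SFP1, −1.06 for RAP1, −0.91 for SCH9, −0.85 for IFH1, −0.56 for FHL1 and −0.24 for HMO1, but 3.16 for CRF1. From 12.4% to 42.2% of the genes of the same class lay below the first 6, and 96.0% below CRF1. In FP the same differences were 6.16 for CRF1 and −1.19 for IFH1. In TE, where the class medians ran from −1.07 for the short to 0.91 for the long genes with a rho of 0.63, they were 2.94 for CRF1, 1.13 for SFP1, 0.88 for FHL1, 0.69 for SCH9, 0.43 for RAP1, −0.34 for IFH1 and −0.45 for HMO1. HMO1 total RNA, whose RPM rose, was thus slightly below the median of the short genes. Glucose and glycerol cultures belong to separate experiments, so medium and experiment cannot be told apart.

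**Figure D5:**
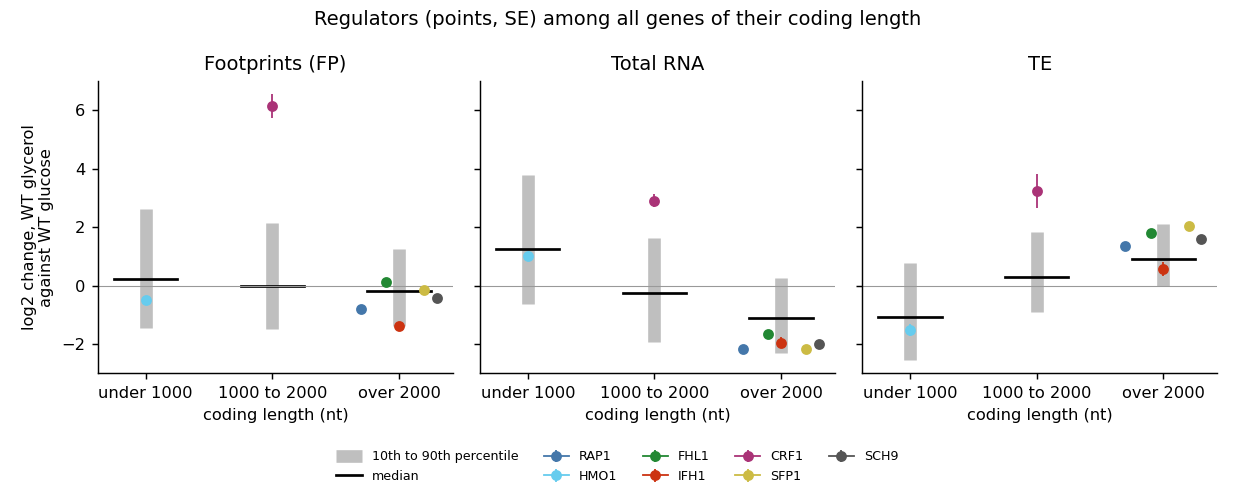
Log2 change of WT in glycerol against WT in glucose for FP, total RNA and TE in 3 classes of coding length, with a black line at the median and a grey band from the 10th to the 90th percentile of all genes of the class, and the regulators as points with bars of 1 SE. The median of total RNA runs from 1.26 below 1000 nucleotides to −1.10 above 2000, and CRF1 lies above the band of its class in every panel.

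RP transcripts in the same WT cultures had a median log2 change of −1.65 in FP (1 higher and 128 lower of 131 tested) and of 0.51 in total RNA (75 higher and 33 lower). The paper describes RP mRNAs as short, and all genes below 1000 nucleotides had medians of 0.23 in FP and 1.26 in total RNA. Both RP medians thus lay below those of the short genes. The pathway around the regulators was read from 6 lists with 42 genes tested, comprising other RP promoter factors, the CURI complex with casein kinase 2, TORC1 and its inputs, the Sfp1 partner MRS6, the PKA pathway and the repressors of ribosome biogenesis. In WT, 16 of these were called higher and 13 lower in FP, 8 and 25 in total RNA and 20 and 7 in TE, beside 76.6%, 85.4% and 73.9% of all genes called, so the lists were not called more often than genes at large. The Rab escort protein MRS6, which binds Sfp1, was lower in both FP and total RNA, with median changes of −0.70 and −1.13 for this list of 1 gene. KOG1, the Raptor subunit of TORC1, had a total RNA change of −2.59 and a ∆TE of 2.40, and TBF1, which binds some RP promoters, −3.11 and 2.35. Others of these lists went the other way, with total RNA at 2.17 and ∆TE at −2.13 for MEH1, an anchor of the EGO complex upstream of TORC1, and 2.17 and −1.34 for FPR1, the rapamycin-binding prolyl isomerase. Unlike those of the regulators, these values were not read against a length class. Total RNA and TE changes followed coding length across all genes (rho −0.61 and 0.63), so the opposite signs are not read as opposite regulation.

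The asc1-M1X strain was compared between media with its own libraries, and in total RNA each regulator moved in the same direction as in WT. CRF1 FP was 17.8 and 11.9 in glycerol against 1.77 and 1.62 in glucose (log2 3.10, SE 0.30), with a read ratio of 9.68 (95% counting interval 6.62 to 14.6). IFH1 FP was 34.3 and 36.5 against 63.7 and 70.4 (−0.90, SE 0.09, adjusted p = 4.04e-05). In total RNA all 7 regulators were called, CRF1 (1.59) and HMO1 (0.91) higher and the others lower with log2 changes of −1.40 to −1.77, and all 7 in TE. In FP, 5 were called. Each of these counts includes CRF1, whose direction the filter had fixed here too. Among the FP calls, SCH9 (0.26, SE 0.08, adjusted p = 0.0202) and FHL1 (0.24, SE 0.08, adjusted p = 0.0327) were higher. The FP change of SCH9 in WT had the opposite sign (−0.41). SCH9 lost its call without asc1-M1X glucose replicate 1 (0.29) or replicate 2 (0.24) and FHL1 without replicate 1 (0.17), and both under DESeq2. RAP1 (−0.17, SE 0.07, adjusted p = 0.0499) stood at the threshold and turned to 0.02 without TMM scaling, where the median gene shifted by 0.19. The background was 80.9%, 86.4% and 76.5% of 5128 genes in FP, total RNA and TE.

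In glycerol, asc1-M1X had less CRF1 than WT. CRF1 FP was 17.8 and 11.9 in asc1-M1X against 78.9 and 57.6 in WT (log2 −2.15, SE 0.23), and its total RNA 63.6 and 54.2 against 126 and 85.6 (−0.83, SE 0.18), both called and without overlap. The read ratios were 0.252 (95% counting interval 0.22 to 0.289) in FP and 0.632 (0.579 to 0.69) in total RNA. IFH1 FP was 34.3 and 36.5 against 29.0 and 27.3 (0.41, SE 0.11) and SFP1 total RNA 45.1 and 63.0 against 38.8 and 34.9 (0.57, SE 0.17). Both were called. IFH1 lost its call without either asc1-M1X library (0.45 and 0.38), without WT replicate 2 (0.37) or under DESeq2, and SFP1 without asc1-M1X replicate 2 (0.30), WT replicate 2 (0.50) or under DESeq2. RAP1 (0.20) and SCH9 (0.12) FP, both lower in asc1-M1X in glucose, were not called. The regulators called were 2 of 7 in FP and 2 in total RNA, against 41.2% and 17.9% of 5083 genes. In TE edgeR called none of the 7 and 0.216% of genes, with 2 regulators at an unadjusted p under 0.05 and 1, CRF1, called by DESeq2. With the culture as a block the ∆TE of CRF1 (−1.33, SE 0.17) and of HMO1 (0.58, SE 0.14) were called, as were 572 genes in place of 11. RP genes had a median FP change of −0.88 in this comparison (0 higher and 126 lower of 131).

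The effect of asc1-M1X in glycerol minus that in glucose was fitted in one model. It combines 2 contrasts that were known when the genes were chosen, and CRF1 entered only through glycerol, so the values are a description. The differences called in FP were −3.07 (SE 0.73) for CRF1, 0.64 (SE 0.11) for SCH9, 0.61 (SE 0.13) for RAP1 and 0.44 (SE 0.14) for IFH1. In total RNA those called were −1.28 (SE 0.27) for CRF1, 0.79 (SE 0.14) for RAP1 and 0.57 (SE 0.16) for SCH9. The median over all genes was −0.12 in FP and 0.02 in total RNA. RAP1 and SCH9 were lower in asc1-M1X than in WT in glucose, and CRF1 was lower in asc1-M1X in glycerol. HMO1 (0.39, SE 0.17), SFP1 (0.26, SE 0.10) and FHL1 (0.07, SE 0.13) were not called in FP. Leaving out a glucose asc1-M1X library removed the FP call of CRF1 (−2.99 without replicate 1, −3.14 without replicate 2), as did leaving out WT replicate 1 of the glucose experiment (−2.30). The IFH1 call was lost without any asc1-M1X library, without WT replicate 2 of either medium (0.38 to 0.51 in all) and under DESeq2. In total RNA the CRF1 call was lost without asc1-M1X glucose replicate 1 (−1.22) or WT glucose replicate 2 (−1.15) and the RAP1 call without asc1-M1X glucose replicate 2 (0.67). The SCH9 call in total RNA was lost in nearly every alternative (0.41 to 0.59). No regulator was called in TE (1 at an unadjusted p under 0.05, none by DESeq2), while the culture block called CRF1 (−1.79, SE 0.54) and HMO1 (0.46, SE 0.14), with 440 genes in place of 37. The background was 27.3%, 11.5% and 0.711% of 5201 genes.

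The pathway lists in the glucose null strain were mixed in direction. Of the 42 genes, 7 were called higher and 12 lower in FP in asc1-M1X, and 4 and 7 in total RNA, beside 52.3% and 36.1% of all genes called. None was called in asc1-D109Y, where 0.985% and 0.37% of all genes were. In asc1-M1X against asc1-D109Y, total RNA was higher for the TORC1 subunit LST8 (log2 0.67, SE 0.07) and for YAK1, the kinase that opposes PKA (0.33, SE 0.07). It was lower for FPR1 (−0.36, SE 0.07). MRS6 had a ∆TE of −0.33 (SE 0.08). All were called, but they were named by their call and size of change in this comparison, so these values are a description only. Of the 131 RP genes, 2 were called higher and 128 lower in FP in that comparison, with a median of −0.44.

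The genes whose FP and total RNA changes in 9 comparisons with WT (18 values) were most like those of each regulator were found by Pearson's r among 4624 genes, CRF1 being below the filter. Many of these comparisons share WT libraries, so r is a description only. IFH1 was closest to LEU3 (r = 0.96), an activator of leucine biosynthesis genes, followed by RQC2 (0.91) of the ribosome quality control complex and FAP1 (0.83). LEU3 total RNA rose by 1.26 (SE 0.09) in rps0b∆ and 1.63 (SE 0.16) in rps16b∆ on the log2 scale, with FP at 0.04 and 0.09, and RQC2 total RNA by 0.89 (SE 0.08) and 1.05 (SE 0.13), with FP at 0.15 and −0.05. FAP1 total RNA had 0.61 (called) and 0.58 (not called), with FP at 0.32 (called) and 0.09. These neighbours were found from the same values, so their likeness to IFH1 in the deletions is no further evidence. HMO1 was closest to PGA3 (0.96), FHL1 to GID12 (0.92), SCH9 to the heat shock factor gene HSF1 and the phosphodiesterase gene PDE2 (0.91 each), RAP1 to the helicase gene PIF1 (0.90) and SFP1 to SWI1 (0.89), a subunit of the SWI/SNF remodeller. Between the regulators, r was highest for FHL1 with RAP1 (0.80) and RAP1 with SCH9 (0.79), and lowest for IFH1 with SFP1 (0.11).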

How the data were processed

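Ribosome footprint and total RNA libraries were sequenced by the authors, who aligned reads with TopHat to the Sigma1278b genome, kept unique alignments and left the first 30 codons and the last 18 nucleotides of each ORF out of counting. The deposited counts are whole, unnormalized reads per ORF, with repeat footprint preparations already pooled. The RPKM, scaled-count and fold-change columns, which hold the authors' own comparisons, were not used. After 19 mitochondrial genes were left out, 5563 ORFs remained. Groups came from the sample labels. Some Ribo-Zero titles name another null allele than their strain field, which was followed. With 2 replicates a group, which for single-clone strains may measure technical spread, precision is limited to that spread.

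Tests used edgeR 4.0.16 (quasi-likelihood, TMM within each library type) in R 4.3.3, on genes whose FP libraries and whose total RNA libraries each reached 128 reads in sum within a comparison, with Benjamini-Hochberg adjustment over all genes tested. TE was the interaction of library type and group. DESeq2 1.42.0, CPM without TMM, other filters, replicate blocks and the omission of each replicate were the alternatives. The fits were tested on simulated data. CRF1 ratios are of reads over library totals, without TMM scaling, and have exact 95% counting intervals. The regulators and gene lists were chosen with earlier results of these data known. No adjusted p-value is printed for a regulator or list gene in a comparison built from mutant and matched WT changes. All 7 regulators are named throughout; list genes are named if called in total RNA or TE and among the 3 largest changes of their list, and LEU3, RQC2, FAP1 and the other neighbours by highest r. The FP and total RNA libraries of a culture came from one extract, and their deviations correlated by 0.03 to 0.49 in 12 pairs, so the culture block is given where it changes a call. Promoter and protein sequences were not used here.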

Additional observations from a re-analysis of the deposited data

Results flagged for a closer look

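The fitted effect of asc1-M1X differed between glycerol and glucose for 4 regulators (edgeR, the difference itself in one fit over both media, 2 replicates a group). In FP the effect in glycerol minus that in glucose was −3.07 for CRF1, 0.61 for RAP1, 0.64 for SCH9 and 0.44 for IFH1, on the log2 scale. In total RNA it was −1.28 for CRF1, 0.79 for RAP1 and 0.57 for SCH9. These differences combine changes that were known when the genes were chosen, so they are a description. Several calls were lost in alternatives, that of CRF1 in FP without any of 3 glucose libraries (−2.30 to −3.14) and in total RNA without either of 2 (−1.22 and −1.15), that of IFH1 in 7 alternatives (0.38 to 0.51), that of SCH9 in total RNA in 11 (0.41 to 0.59) and that of RAP1 in total RNA in 1 (0.67). CRF1 had 2 to 16 FP reads in each of the glucose libraries of these strains. Medium and experiment cannot be told apart in these comparisons. No group had enough samples for a check of single outlying libraries.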

How the results depend on the processing

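The counts of regulators called, 51 over all comparisons and pools, moved by more than 1.5 times in 68 of 467 alternatives, and 23 of the 51 moved in none. With DESeq2 the count in FP went from 2 to 1 in asc1-M1X in glycerol, from 5 to 2 in asc1-M1X between media, from 1 to 0 in rpp1a∆ and from 2 to 1 in rps0b∆. In total RNA it went from 2 to 1 in asc1-M1X in glycerol and from 4 to 1 in asc1∆, and in TE from 1 to 0 in asc1∆ and in asc1-M1X with Ribo-Zero RNA and from 0 to 1 in asc1-M1X in glycerol. Without TMM (CPM) it went in FP from 4 to 2 in asc1-M1X, from 2 to 4 in rpl23b∆ and rps0b∆ and from 1 to 4 in rpp1a∆, and in total RNA from 3 to 1 in asc1-M1X, 4 to 1 in asc1∆, 1 to 2 in rpp1a∆ and 2 to 5 between poly(A)-selected and Ribo-Zero RNA. CPM was the only setting that reversed a called change, RAP1 FP in asc1-M1X in glycerol against glucose, from −0.17 to 0.02. With at least 10 reads in every library the total RNA difference between media had 1 in place of 3. Without a filter asc1-M1X total RNA had 5 in place of 3, CRF1 entering the test, and with Ribo-Zero RNA also 5.

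Leaving out 1 replicate gave, in FP, 2 to 4 regulators in asc1-M1X, 1 to 2 in asc1-M1X in glycerol and rpl23b∆, 2 to 6 in asc1-M1X between media, 2 to 4 for the difference between media, 0 to 1 in rpp1a∆ and between the small-subunit deletions, 0 to 2 in rps0b∆ and 0 to 3 in rps16b∆. In total RNA it gave 3 to 5 with Ribo-Zero, 1 to 3 in asc1-M1X and for the difference between media, 1 to 2 in asc1-M1X in glycerol and rps16b∆, 1 to 4 in asc1∆, 0 to 2 in rpl23b∆ and between the small-subunit deletions and 0 to 1 in rpp1a∆. In TE it gave 0 to 1 in asc1-M1X with either RNA, asc1∆, rpl23b∆ and rps16b∆. The cause was not tested.

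The paper sets replicates 1 and 2 of the Asc1-null strains against their corresponding WT and describes the numbers as biological replicate experiments. The number may thus pair mutant and WT, which the main fit leaves out. Correlations were 0.01 to 0.55 in 15 pairs, and 13 exceeded 0.1. With the replicate number as a block the count went from 1 to 3 in rpp1a∆ FP. It went from 3 to 5 in total RNA of asc1-M1X against WT and against asc1-D109Y, IFH1 and FHL1 being added in both. In asc1∆ the block added IFH1 in FP (−0.18) and in total RNA (−0.12). With the culture as a block the TE count went from 0 to 2 in asc1-M1X in glycerol, from 0 to 2 for the difference between media and from 0 to 1 for asc1-M1X against asc1-D109Y. The block moved the number of all genes called by over 1.5 times in 4 of 14 comparisons in FP, 9 of 16 in total RNA and 10 of 15 in TE. WT levels kept their order with whole coding lengths. Depth limits CRF1 in glucose FP, at 2 to 17 reads a library.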
